A study of Mus musculus with 79 samples.

Results

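The aminoacyl-tRNA synthetases are the enzymes that load each tRNA with its amino acid. The 37 genes described here were chosen by gene name, out of 38879 genes in the deposited table: every symbol made of a single letter followed by ars, with or without a 2, plus Eprs, Farsa and Farsb. No measured value entered that rule, but the family was put forward when the lower level of Lars2 in pyramidal neurons of stressed mice was already known. That comparison is therefore given below as a description, and nothing is read from its passing a threshold. Of the members, 20 carry names of cytosolic enzymes and 17, with names ending in 2, are mitochondrial. All 37 passed the filter on low values (a mean normalized count of at least 10) in every fit.

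All 20 mice were males of the strain C57Bl/6J, and the RNA was taken from their medial prefrontal cortex. In the stress arm, called UCMS, 10 mice had 5 weeks of changing mild stressors such as restraint, wet bedding and predator odor, while the 10 control mice had none; UCMS mice were housed singly and controls with littermates, so housing and stress cannot be told apart. From each mouse, 130 neurons of a type were cut by laser out of sections 12 µm thick after staining with RNAscope probes: excitatory pyramidal neurons (PYR) and 3 kinds of inhibitory neuron, named after the parvalbumin (PV), the somatostatin (SST) or the vasoactive intestinal peptide (VIP) that they make. Total RNA, not only polyadenylated RNA, was made into libraries. Each type and arm has n = 10 libraries, except PV neurons of UCMS mice with n = 9, and the same mouse gave all of its types. The labels give no age.

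Each synthetase recognises an amino acid and its own tRNAs, and a cell with mitochondria needs the reaction in both places. Most amino acids are served by a cytosolic enzyme and by a separate nuclear-encoded enzyme that is imported into mitochondria. Gars and Kars each make both forms from the same gene, Eprs joins the glutamate and proline enzymes in a single chain, and mitochondria obtain glutaminyl-tRNA by a detour through an amidotransferase, so that Qars has no counterpart with a 2 in its name. Several cytosolic members sit together on the scaffold proteins Aimp1, Aimp2 and Eef1e1 in the multisynthetase complex. Dominant mutations in Gars and Yars are known causes of inherited neuropathy, and Lars2 and Hars2 mutations of hearing loss with ovarian failure.

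Libraries held between 3642579 and 13529571 reads on genes and 9033 to 20307 genes with at least 1 read. The members took between 0.119% and 0.197% of the reads of a library. The probed genes marked their own type in control mice: the mean normalized count of Slc17a7 was 14218 in PYR, of Pvalb 816 in PV, of Sst 12981 in SST and of Vip 5104 in VIP libraries. RNA of the pyramidal marker Slc17a7 was also counted in the other libraries, with means of 2819 in PV, 3262 in SST and 4794 in VIP, and its part in the differences between types below was not tested. Values are normalized counts, reads divided by a size factor of the library. Levels are compared between genes only after division by the length of all annotated exons in kb. Fewer cells and less RNA per cell cannot be told apart in such libraries.

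Among the cytosolic enzymes, Gars, the glycine enzyme, had the highest level per length and Tars, the threonine enzyme, the lowest. Averaged over the 8 groups of type and arm, Gars stood at 345 normalized counts per kb, followed by Sars at 203, Nars at 199.8 and Hars at 198, and Tars at 34.5. The median of the 20 was 75.7. Of the 20, 12 had reads in all 79 libraries, and the other 8 were at 0 in at most 6 libraries each. Hars shares 195 exon bases with the mitochondrial Hars2 on the opposite strand, and whether counting used the strand is not given in the sources used here.

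The mitochondrial enzymes were lower, with the exception of Lars2, the mitochondrial leucine enzyme. Their median was 20.5 normalized counts per kb. Lars2 stood at 229, the next, Aars2, at 46.5 and the lowest, Wars2, at 9.10. Only Lars2 and Aars2 had reads in all 79 libraries; Pars2, the proline enzyme, was at 0 in 32 libraries, and Sars2 and Wars2 in 24 each. A count of 0 in a library allows a true level of up to 3 reads there, by counting error alone.

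**Figure D1:**
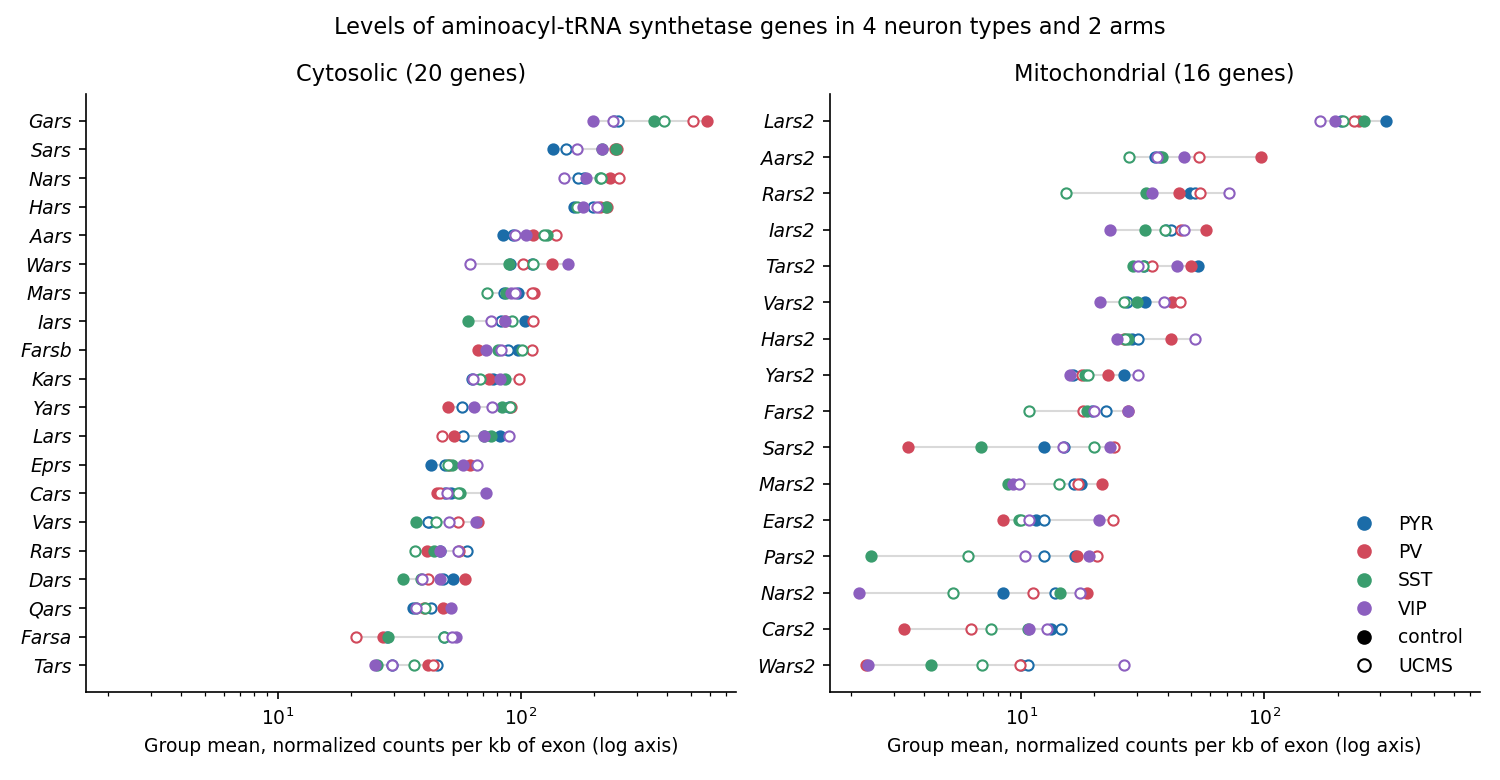
Mean level of the members, all but 1 of them plotted, in the 4 neuron types, in normalized counts per kb of exon on a log axis, with filled points for control and open points for UCMS mice (9 or 10 libraries a point). Gars lies highest among cytosolic enzymes and furthest apart between types, and Lars2 at 229 lies apart from the other mitochondrial enzymes plotted, which stay at or under 46.5 when averaged over the 8 groups.

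Set beside the cytosolic enzyme or enzymes for the same amino acid, 15 of the 17 mitochondrial members were lower per length. The median ratio of cytosolic to mitochondrial level was 3.80. It reached 17.5 for the asparagine pair Nars and Nars2 and 13.6 for the serine pair Sars and Sars2. The arginine pair was nearly level at 1.09. For threonine the ratio was 0.907 and for leucine 0.298, since Lars stood at 68.3 and Lars2 at 229 normalized counts per kb.

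Summed over its members, the cytosolic class was highest in PV neurons in both arms. In control mice the sum was 2363 ± 299 normalized counts per kb (SD, n = 10) in PV, 2035 ± 275 in SST, 1925 ± 473 in VIP and 1795 ± 190 in PYR libraries. In UCMS mice it was 2389 ± 204 (SD, n = 9) in PV, 2066 ± 238 in SST, 1780 ± 267 in VIP and 1772 ± 122 in PYR libraries. Ranges of single libraries overlapped between PV and SST and between PV and VIP. In control mice the highest VIP library, at 3005, lay above the highest PV library, at 2945. In PYR neurons the highest control library was at 2057 and the highest UCMS library at 1917, while the lowest PV libraries were at 2017 and 2124. Without Gars, the group means of the cytosolic sum ran only from 1522 to 1877. No test is given for these sums, because the list was chosen with results known.

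The mitochondrial sum lay between 497 and 716 normalized counts per kb as a group mean, and Lars2 alone made up 28.8% to 46.1% of it. In PYR neurons it was 703 ± 128 in control and 579 ± 74.5 in UCMS mice (SD, n = 10 each). Without Lars2 the PYR values were 386 ± 81.1 and 373 ± 49.1, so the other 16 enzymes together were at about the same level in both arms there. In control mice the sum of those 16 was highest in PV at 471 ± 109 and lowest in SST at 297 ± 72.1 (SD, n = 10 each), and in UCMS mice it was highest in VIP at 443 ± 190 (SD, n = 10), beside 419 ± 65.0 in PV (n = 9), and lowest in SST at 287 ± 34.6. In VIP of control mice it was 355 ± 118, with overlapping libraries. The mitochondrial sum was 31.1% of the cytosolic sum on average over the 79 libraries, or 19.4% without Lars2.

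Lars2 (chr9:123366927-123462666, plus strand, GRCm38) had its highest level in PYR neurons of control mice and a lower one there after stress. In PYR libraries of control mice its normalized count was at lowest 2501, at the median 3509 and at highest 5037, and in UCMS mice 1659, 2247 and 3350. The ranges of the arms overlapped, with the UCMS median below the lowest control library. Means were 3523 ± 874 and 2288 ± 560 (SD, n = 10 each), a log2 fold change of -0.62 with a standard error of 0.12, on the log2(normalized count + 4) scale used throughout. Of all 16092 genes tested in PYR neurons 13, or 0.0808%, passed an adjusted p of 0.05, 1 of them higher and 12 lower in UCMS mice. Lars2 was the only member among them, and since it was known when the family was put forward nothing is read from that count.

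In the other types Lars2 did not pass. In PV neurons the median was 2838 in control and 2678 in UCMS libraries, and the log2 fold change was -0.09 ± 0.16 (SE; limma adjusted p = 0.982). Leaving out the UCMS library of mouse U607 moved that value to 0.0017. In SST neurons the medians were 2662 and 2381, with a log2 fold change of -0.25 ± 0.15 (limma adjusted p = 0.859). In VIP neurons they were 1840 and 1896, while the log2 fold change was -0.16 ± 0.19 (limma adjusted p = 0.939). A single control library at 5030, with the next at 2586, stood apart there, beside a control mean of 2168. With the types averaged within each mouse the log2 fold change was -0.29 ± 0.09 (SE, 20 mice). That average holds the PYR values and is a description. A difference of the change between types would rest on the same values, so none is claimed.

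The count at Lars2 moved from library to library most closely with 2 gene models that are not synthetases. After group means were removed, the gene most like Lars2 across the 79 libraries, out of 17426, was Gm15564 with a correlation of 0.86. The next was CT010467.1, annotated as ribosomal RNA, at 0.72. Ranks 3 to 5 were models annotated as miRNA, at 0.56, 0.51 and 0.50. The member most like Lars2 was Mars at 0.23. Within the 8 groups the correlation of log2 values with Gm15564 ran from 0.82 to 0.91, each over 9 or 10 libraries, and from 0.44 to 0.93 without the 2 libraries farthest from the median of Gm15564. With CT010467.1 it ran from 0.17 to 0.96, and from -0.20 to 0.96 without such libraries. These models were picked for their likeness on the same libraries and share size factors with Lars2, so the correlations are descriptions. The summed share of all 161 nuclear ribosomal RNA-like models, which holds Gm15564 and CT010467.1 too, gave correlations from -0.36 to 0.59 with Lars2. Rank correlations ran from -0.30 to 0.62. The lowest permutation p-values, adjusted over 24 relations, were 0.150 and 0.158.

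**Figure D2:**
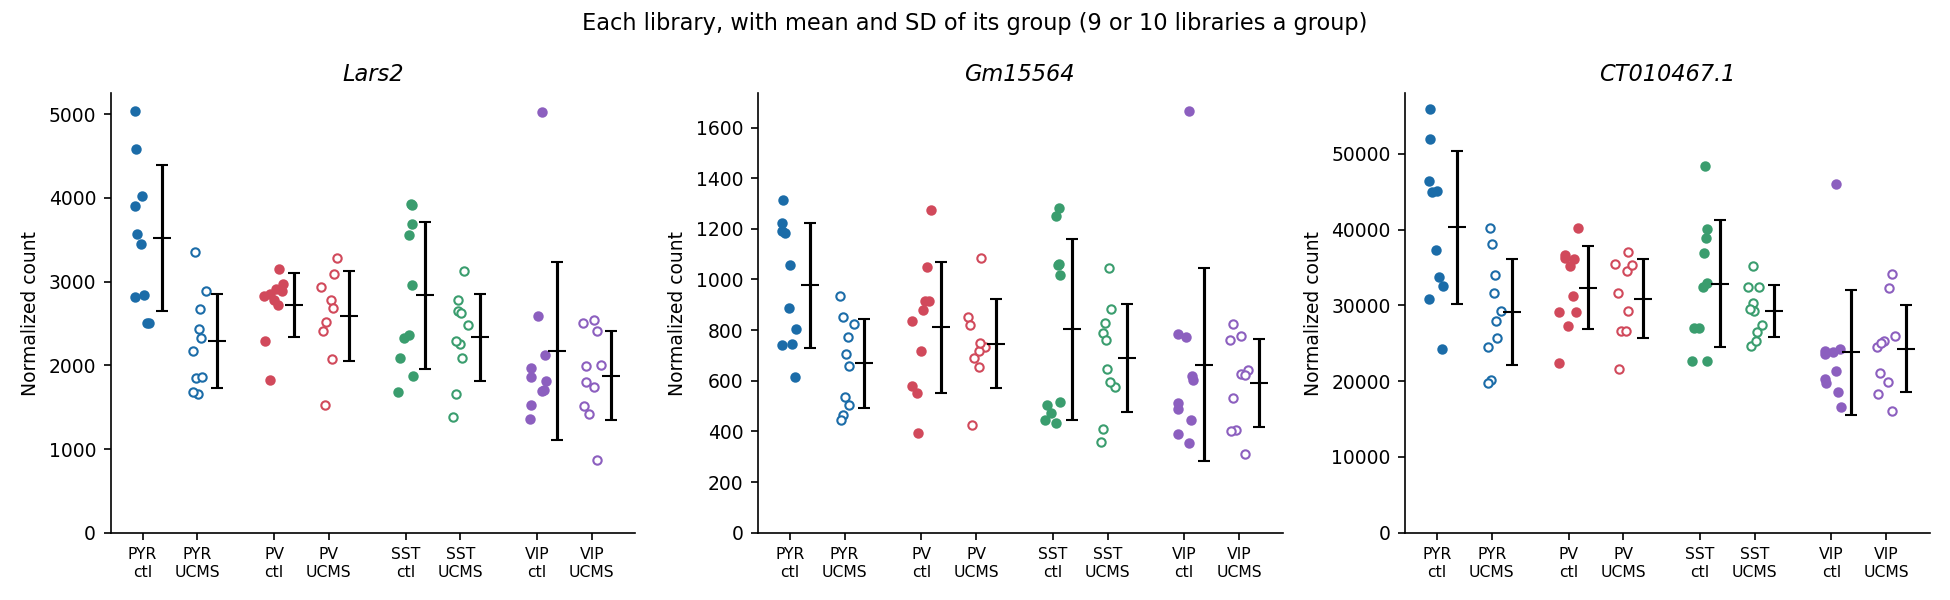
Normalized counts of Lars2 and of the gene models Gm15564 and CT010467.1 in each library of 4 neuron types, control (ctl, filled) and UCMS (open), with the mean and SD of each group of 9 or 10 libraries. All 3 had their highest group mean in PYR neurons of control mice, and the control VIP library with 5030 counts of Lars2 is also the highest of its group for both models.

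Lars2 and Gm15564 also share sequence. The last exon of Lars2 holds a stretch of 72 bases, in the 3' UTR at chr9:123462048-123462119, that is 98.6% identical on the same strand to exons 1 and 2 of Gm15564, an antisense gene model on the minus strand of chr16:35966752-35983230. At 95% identity or more over at least 50 bases, the only other gene found for Lars2 was AA474408, with 50 bases. The cut of 50 bases was set after the data were seen. At the planned cut of 100 bases, 0 other genes were found for Lars2. Shared stretches are not particular to Lars2: at 50 bases the other members ran from 0 other genes, as for Gars, to 836 for Cars2. How reads mapping to several places were counted is not given in the sources used here. Lars2 had 3.22 to 3.81 times the normalized count of Gm15564 as a group mean, and between 2.31 and 5.47 times in single libraries, while Lars2 itself ran from 873 to 5037 over the 79 libraries.

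**Figure D3:**
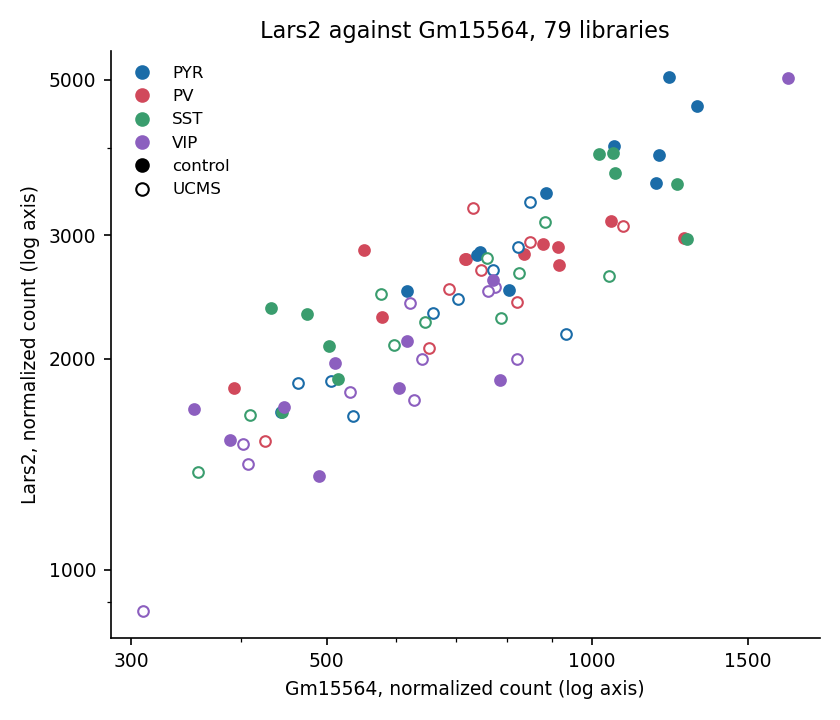
Lars2 against Gm15564 in each of 79 libraries, both as normalized counts on log axes, coloured by neuron type with filled points for control and open points for UCMS mice. The libraries lie along a single band, with Lars2 at 2.31 to 5.47 times Gm15564.

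In PYR neurons both models also had lower means in UCMS mice, without passing the test. Gm15564 averaged 977 ± 246 in control and 669 ± 175 in UCMS libraries (SD, n = 10 each), a log2 fold change of -0.55 ± 0.21 (limma adjusted p = 0.683). CT010467.1 averaged 40286 ± 10121 and 29118 ± 6962, a log2 fold change of -0.46 ± 0.16 (limma adjusted p = 0.683). With log2 Gm15564 as a covariate, an alternative chosen after the data were seen, the Lars2 value in PYR was -0.19. Gm15564 was picked for its likeness to Lars2 in these same libraries, so nothing is read from that smaller value. Protein-coding genes took a share of the reads that differed between the arms in PYR libraries too, at 58.7% ± 3.90 in control and 64.2% ± 2.26 in UCMS mice (SD, n = 10 each; permutation p = 0.00098, adjusted over 8 tests 0.00784). With that share as a covariate the Lars2 value was -0.20. Models annotated as miRNA took 20.9% to 34.6% of the reads in PYR libraries of control mice and 17.9% to 26.7% in those of UCMS mice, a difference that was not tested. The share on ribosomal RNA-like models was 1.18% ± 0.165 and 1.08% ± 0.117 (permutation p = 0.132), and Lars2 stayed at -0.57 with it as a covariate. What part these quantities have in the Lars2 difference was not tested.

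Summed markers of other cells overlapped between the arms in PYR libraries. Over 6 oligodendrocyte markers the summed normalized count ran from 832 to 4081 in control and from 898 to 2012 in UCMS libraries. Over 6 astrocyte markers it ran from 435 to 1710 and from 626 to 1222, over 7 microglial markers from 135 to 792 and from 89.5 to 599.9, and over 4 endothelial markers from 0 to 337 and from 16.7 to 469. Tmem119 of microglia and Cldn5 of endothelium were at 0 in most libraries of both arms, Gfap in most of the control and Cdh5 in most of the UCMS libraries. None of the markers tested in these lists passed in the PYR comparison.

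Between neuron types, Gars was the member that stood out, with its highest level in PV neurons of both arms. Gars (chr6:55038007-55079500, plus strand, GRCm38) charges glycine tRNAs in the cytosol and in mitochondria. In control mice its normalized counts, as lowest, median and highest library, were 937, 1846 and 2658 in PV, 563, 1168 and 1596 in SST, 489, 694 and 1391 in PYR, and 247, 657 and 965 in VIP neurons. PV was the highest of the 4 types in 9 of 10 control mice. In UCMS mice the counts were 782, 1562 and 2914 in PV, 586, 1133 and 1858 in SST, 399, 767 and 1084 in PYR, and 363, 723 and 1116 in VIP neurons. PV was highest in 6 of the 9 UCMS mice with all types, and SST in the other 3. The ranges of all 4 types overlapped with each other in both arms.

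With the mouse as a block, Gars in PV lay above the other 3 types by a log2 difference of 1.19 ± 0.22 in control mice (SE; limma adjusted p = 1.21e-05) and of 0.81 ± 0.19 in UCMS mice (limma adjusted p = 0.000763). In VIP it lay below them by -0.97 ± 0.22 (limma adjusted p = 0.0013) and -0.64 ± 0.18 (limma adjusted p = 0.014), the latter at an adjusted p of 0.0708 when no filter on low values was used. Some glial markers also passed for VIP, where 4.23% of all genes passed in control and 6.67% in UCMS mice. Of 6 astrocyte markers 1 passed as higher in control and 2 in UCMS mice (medians of 0.81 and 0.91). Of 6 oligodendrocyte markers 0 and 3 passed as lower (medians of -0.76 and -0.79), and of 7 microglial markers 0 passed in either arm. The part of glial RNA in the VIP differences of Gars, Lars2 and Iars2 was not tested. The arms share no mouse, so the UCMS comparison repeats the control comparison in other animals.

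Sars, the cytosolic serine enzyme (chr3:108424865-108445209, minus strand), was lower in PYR neurons of control mice than in the other types. Its counts in control mice, as lowest, median and highest library, were 323, 684 and 1173 in PYR, against 1032, 1189 and 1612 in PV, 715, 1165 and 2443 in SST and 518, 962 and 3133 in VIP neurons. In PYR all but 1 library, at 1173, lay below the lowest PV library, while SST and VIP overlapped with both. PYR against the other types gave -0.79 ± 0.22 in control mice (SE; limma adjusted p = 0.00773) and -0.52 ± 0.18 in UCMS mice (limma adjusted p = 0.0519). PYR was the lowest type in 6 of 10 control mice, but VIP in 6 of 9 UCMS mice and PYR in 2. There the counts were 259, 748 and 1442 in PYR, 899, 1183 and 1708 in PV, 590.4, 1178 and 1518 in SST and 494, 782 and 1766 in VIP neurons, and all types overlapped. PV was higher in UCMS mice by 0.55 ± 0.19 (limma adjusted p = 0.0428). That call was lost with quantile normalization, with scaling to protein-coding reads and with no filter (limma adjusted p of 0.0579, 0.0547 and 0.147).

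Farsa, the catalytic subunit of the cytosolic phenylalanine enzyme, was lower in PV neurons of UCMS mice than in the other types, by -1.65 ± 0.50 (SE; limma adjusted p = 0.0156), with counts of 0, 72.3 and 238 there and of 23.3, 258 and 412 in VIP neurons as lowest, median and highest library. In control mice the same contrast was 0.23 ± 0.70 (limma adjusted p = 0.916), and the difference between the arms was not tested for this contrast. In the test of any difference between the 4 types, Farsa did not pass in either arm. Farsb, which makes the other subunit of the same enzyme, did not pass in any type comparison.

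Of the mitochondrial members, Lars2 and Iars2 passed between types. Lars2 was higher in PYR than in the other types of control mice, by 0.48 ± 0.13 (SE; limma adjusted p = 0.00597, or 0.0679 with no filter), and not in UCMS mice, where the difference was 0.03 ± 0.12 (limma adjusted p = 0.946). These comparisons use the PYR libraries of the stress comparison and are not independent of it. In VIP neurons Lars2 was lower in control mice by -0.54 ± 0.13 (limma adjusted p = 0.00257) and in UCMS mice by -0.38 ± 0.12 (limma adjusted p = 0.0226, or 0.0748 with no filter). The VIP differences hold the PYR libraries among the other types, so they are not independent of the stress comparison either. VIP was the lowest type for Lars2 in 9 of 10 control mice and in 4 of 9 UCMS mice. The ribosomal RNA model CT010467.1 went the same way in control mice, with 0.45 ± 0.13 in PYR (limma adjusted p = 0.0282) and -0.58 ± 0.13 in VIP (limma adjusted p = 0.00549), and its part in the Lars2 differences was not tested.

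Iars2, the mitochondrial isoleucine enzyme (chr1:185284726-185329396, minus strand), was lower in VIP neurons of control mice by -1.74 ± 0.47 (SE; limma adjusted p = 0.0112). Its counts there were 0, 169 and 570 (lowest, median and highest), against 151, 341 and 521 in PYR, 72.6, 461 and 1266 in PV and 38.5, 321 and 497 in SST neurons. The VIP control libraries at 0 and 4.26 were shallow, with 3642579 and 4568943 reads, while that with 4708200 reads was at 96.5. The part of depth in this difference was not tested. In the test of any difference between types, Iars2 did not pass with edgeR or DESeq2. In UCMS mice the VIP difference did not pass, at 0.22 ± 0.30 (limma adjusted p = 0.767), with counts of 217, 440 and 587. The stress contrast in VIP was 2.04 ± 0.63 (limma adjusted p = 0.932), and Iars2 had the smallest p of the family in the interaction test, 0.00475 unadjusted and 1.00 adjusted. It shares 2034 exon bases with Rab3gap2 on the opposite strand.

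**Figure D4:**
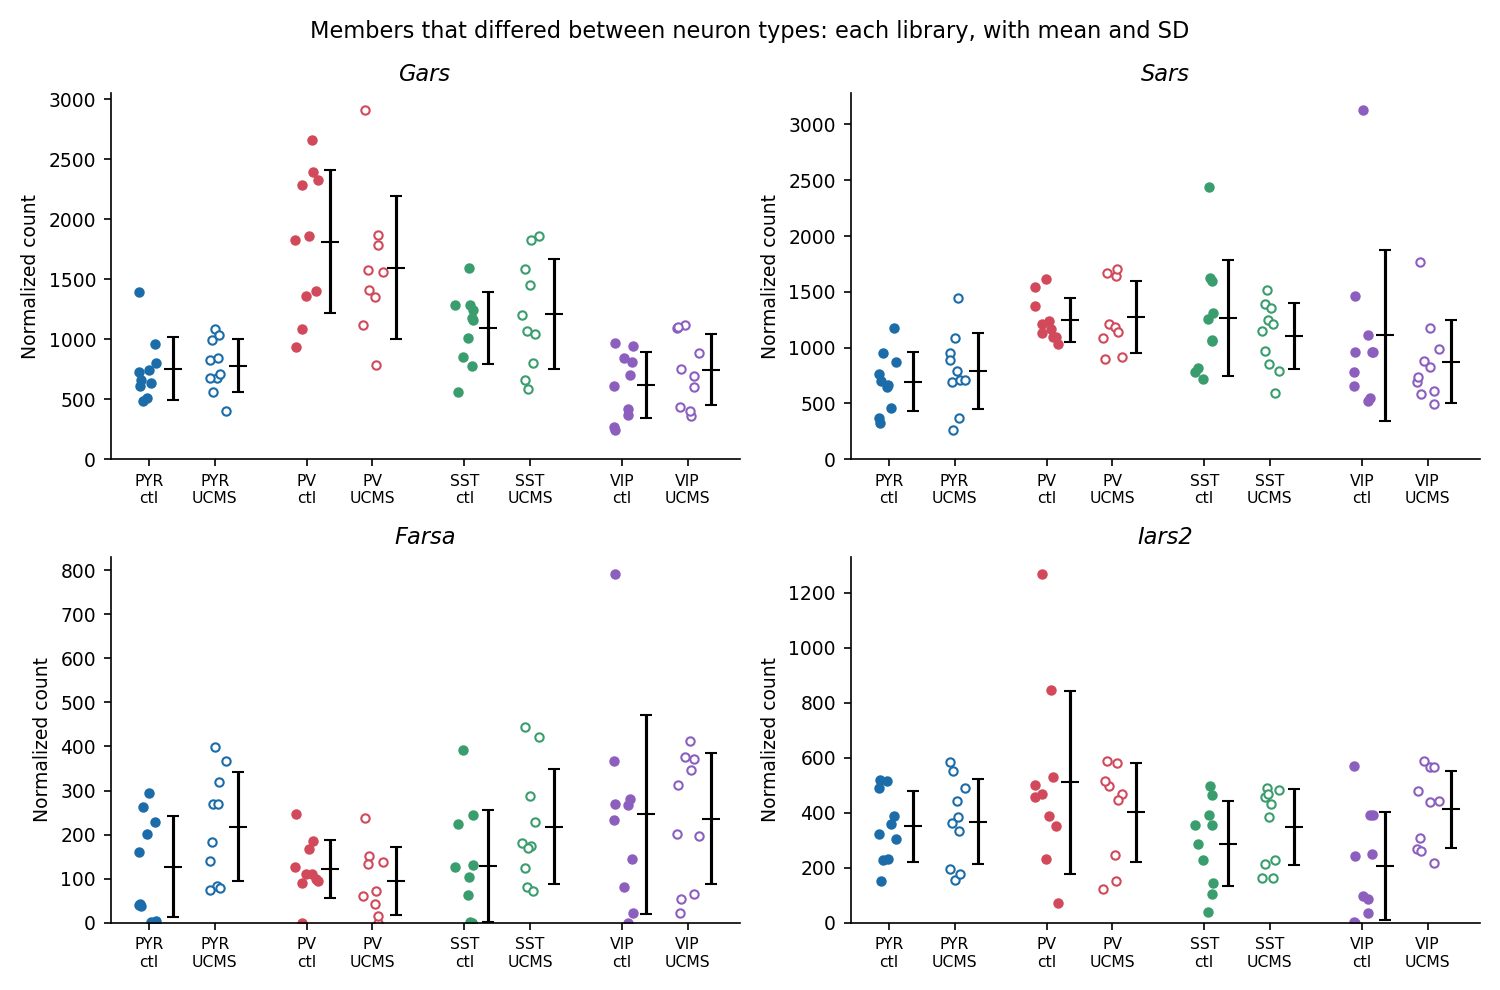
Normalized counts of Gars, Sars, Farsa and Iars2 in each library of 4 neuron types, control (ctl, filled) and UCMS (open), with the mean and SD of each group of 9 or 10 libraries. Gars is highest in PV neurons in both arms, Sars lowest in PYR neurons of control mice, Farsa lowest in PV neurons of UCMS mice, and Iars2 lowest in VIP neurons of control mice.

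In the F test over the 4 types, 4 members passed in control mice (Gars, Lars2, Sars and Iars2), where 12.3% of 17498 genes did, and 3 in UCMS mice (Gars, Sars and Lars2), where 16.3% of 17638 did. Where Lars2 is among the members, here and for single types below, the test holds the PYR libraries of the known stress comparison. Nothing particular to the family is read from these counts. For single types against the other 3, 2 of 37 members passed for PYR in control mice (6.26% of all genes), 1 for PV (7.35%), 0 for SST (2.49%) and 3 for VIP (4.23%). In UCMS mice 0 passed for PYR (8.18%), 3 for PV (11.0%), 0 for SST (3.64%) and 2 for VIP (6.67%). Across the 37 members, which are not independent replicates, the correlation of the control and UCMS differences was 0.28 for PYR, 0.24 for PV, -0.08 for SST and -0.24 for VIP.

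Outside Lars2 in PYR neurons, no member passed in a stress comparison. In PV, SST and VIP neurons 0% of the 16847, 17108 and 19451 genes tested passed with limma, and so it was for the average over the types (0% of 17427) and the interaction of stress and type (0% of 17427). At an unadjusted p under 0.05 there were 2, 4 and 5 members in PV, SST and VIP, 5 for the average and 4 for the interaction, beside 630, 979, 1001, 1214 and 816 genes in all. The 5 for the average include Lars2, whose average holds the PYR values known beforehand. From the recovered reads, 0 genes passed with edgeR and 46 with DESeq2 in PV, 0 and 30 in SST and 896 and 83 in VIP neurons, with no member among them.

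The members with the smallest p were low mitochondrial enzymes in 2 types and Tars in SST. Sars2 in PV neurons was at 0 in 7 of 10 control libraries and in 1 of 9 UCMS libraries, with means of 11.3 ± 32.6 and 79.6 ± 84.3 (SD) and a log2 fold change of 2.75 ± 0.99 (SE; limma adjusted p = 0.982). Wars2, the tryptophan enzyme, in VIP neurons was at 0 in 6 of 10 control and in 0 of 10 UCMS libraries, with means of 13.9 ± 23.3 and 157 ± 193 and a log2 fold change of 3.39 ± 1.02 (limma adjusted p = 0.932). Tars in SST neurons had medians of 50.2 and 189.5 and a log2 fold change of 1.99 ± 0.78 (limma adjusted p = 0.781), with overlapping ranges of 0 to 683 and 29.0 to 409. Wars2 also had the smallest p for the average over the types, with 1.75 ± 0.47 (limma adjusted p = 0.522). In PYR neurons the member after Lars2 was Farsa, with 1.44 ± 0.57 (limma adjusted p = 0.687).

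**Figure D5:**
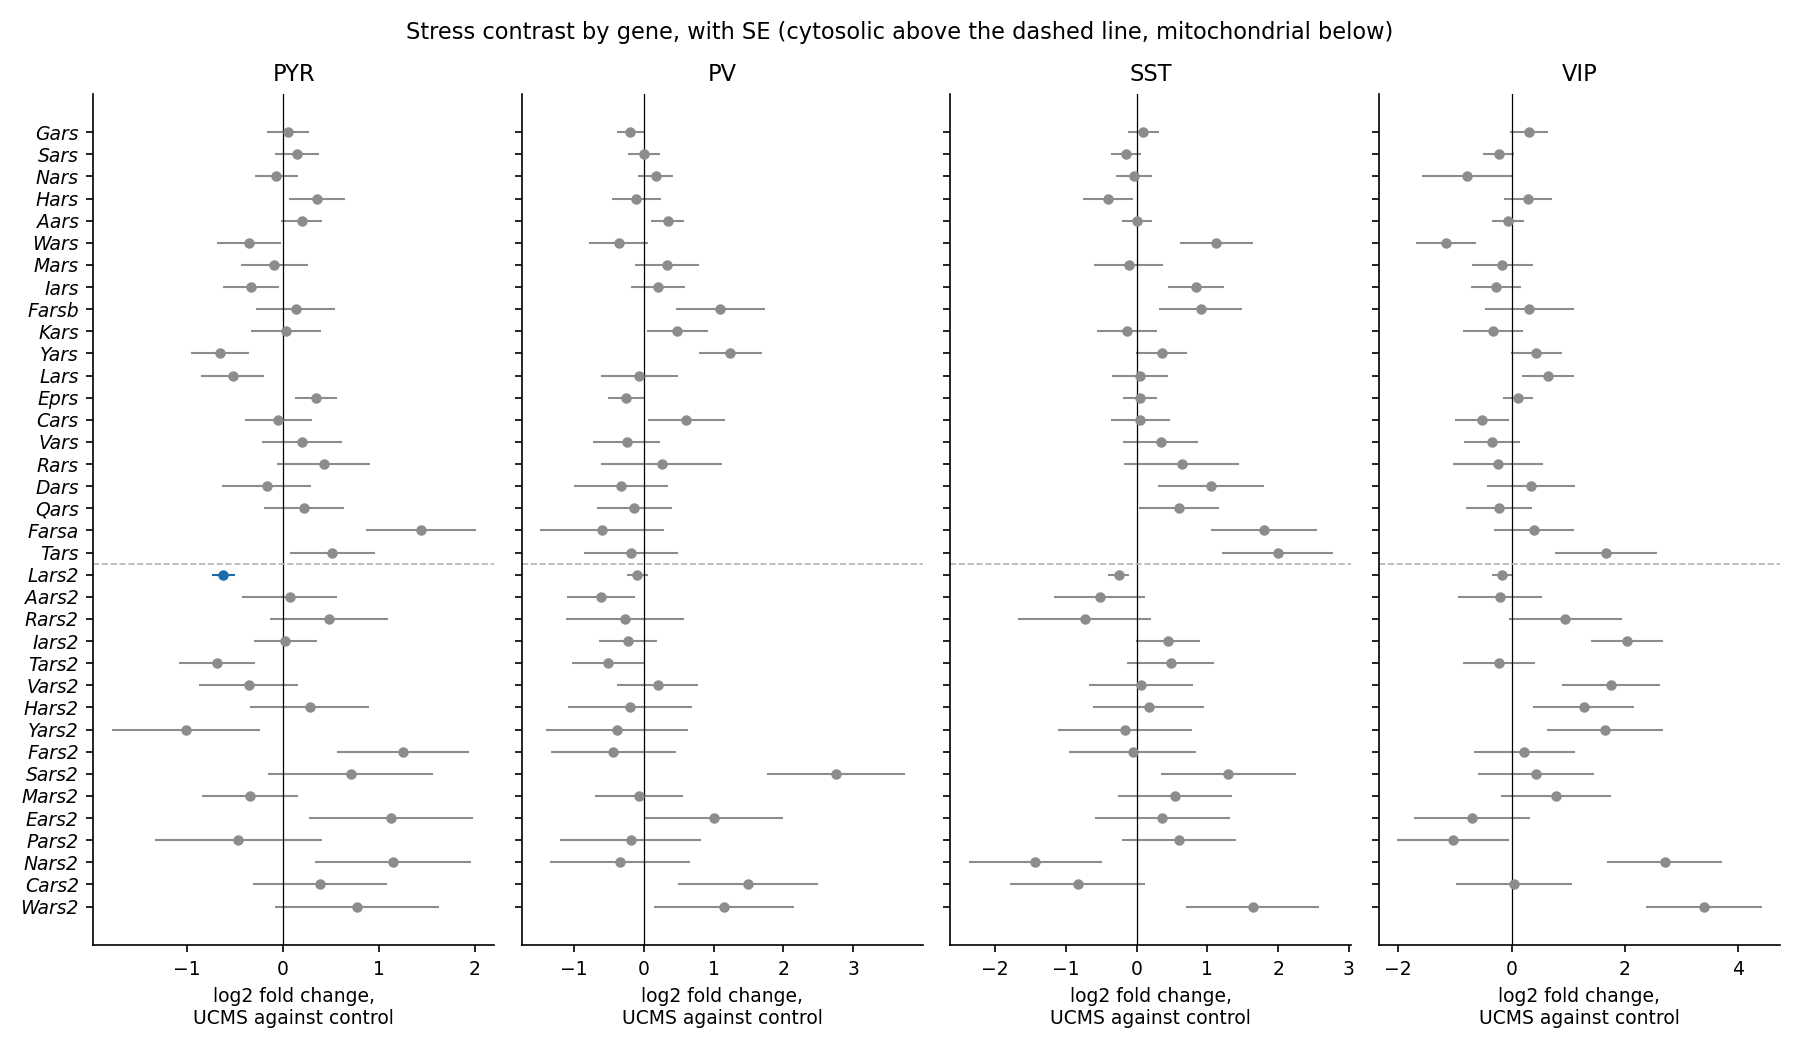
Log2 fold change of the members, all but 1 of them plotted, UCMS against control, with its SE in PYR, PV, SST and VIP neurons; cytosolic enzymes stand above the dashed line and mitochondrial ones below, and each panel has its own axis. Colour marks an adjusted p under 0.05 with limma, which only Lars2 in PYR neurons had. That value was known when the family was put forward, so its colour is a description. The widest errors belong to the low mitochondrial members such as Wars2.

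By class, the median stress log2 fold change of the cytosolic members was 0.10 in PYR, -0.03 in PV, 0.22 in SST and -0.11 in VIP neurons, and of the 16 mitochondrial members other than Lars2 0.33, -0.19, 0.27 and 0.61. Over all genes tested the medians were 0.10, 0.05, 0.15 and 0.17. Libraries without any read of a member were more frequent in control mice: 130 of 680 values of mitochondrial members (19.1%) were 0 in the 40 control libraries and 72 of 663 (10.9%) in the 39 UCMS libraries, and 19 of 800 (2.38%) and 6 of 780 (0.769%) for cytosolic members. Wars2 was at 0 in 18 control and 6 UCMS libraries, Sars2 in 19 and 5. Over the family, 19 members were at 0 in more control libraries, 3 in more UCMS libraries (Pars2 with 14 and 18, Mars2 with 2 and 3, Nars with 0 and 1) and 15 in as many. The median number of genes with a read was 13560 in control and 14826 in UCMS libraries, at median totals of 9583360 and 10326422 reads, and the part of depth in these counts was not tested.

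None of the 3 scaffold genes of the multisynthetase complex, the 4 genes for mitochondrial glutamine and initiator tRNA charging, the 10 mitochondrial translation factors, the 7 cytosolic elongation factors or the tested members of the amino acid response (15 to 16 of 17) passed in any type with limma. Of the genes tested, 0.0808% passed in PYR and 0% in the other types. Between types, several elongation factors passed. In PV neurons of control mice Eef1a2, the form of elongation factor 1 alpha found in mature neurons and muscle, was higher by 0.58 ± 0.09 (SE; limma adjusted p = 1.99e-07) and Eef1a1, the general form, lower by -0.78 ± 0.09 (limma adjusted p = 9.88e-13). In UCMS mice the values were 0.45 ± 0.09 (limma adjusted p = 2.77e-05) and -0.58 ± 0.08 (limma adjusted p = 3.56e-09). Eef2, which moves the ribosome along, was higher in PV as well, by 0.38 ± 0.11 and 0.44 ± 0.10 (limma adjusted p = 0.0141 and 0.000464). In each arm 3 of these 7 factors passed for PV, where 7.35% of all genes passed in control and 11.0% in UCMS mice. In each arm 2 of 7 passed for VIP, lower (4.23% and 6.67% of all genes): Eef1a2 in both, Eif5a in control and Eef1b2 in UCMS mice. Eif2ak4, the kinase known as GCN2 that senses uncharged tRNA, was lower in PYR neurons by -1.69 ± 0.34 in control and -1.48 ± 0.27 in UCMS mice (limma adjusted p = 9.38e-05 and 9.70e-06). For this list 2 of 16 tested members passed for PYR in control mice (6.26% of all genes), Eif2ak4 lower and Eif4ebp1 higher, and Eif2ak4 alone in UCMS mice (8.18% of all genes), where it was higher in VIP by 0.90 ± 0.27 (limma adjusted p = 0.0243). Slc3a2, a chain of amino acid transporters, was lower in VIP of control mice by -1.65 ± 0.40 (limma adjusted p = 0.00349). Atf4, the transcription factor that this kinase acts through, passed for PV in UCMS mice, higher by 0.81 ± 0.25 (limma adjusted p = 0.0164). Among mitochondrial translation factors, Gfm2 was higher in PV and lower in VIP of control mice, by 1.73 ± 0.55 and -2.68 ± 0.55 (limma adjusted p = 0.0292 and 0.000171). In UCMS mice Tufm was higher in PV and lower in VIP, by 1.74 ± 0.53 and -2.04 ± 0.51 (limma adjusted p = 0.0157 and 0.00321). Of these 10 factors 1 passed for PV in each arm, and for VIP 1 in control and 3 in UCMS mice, all lower in VIP; the other 2 were Mrrf and Gfm1. Of 6 other synthetase-related enzymes tested, Dtd1 and Ptrh2 passed for PV in UCMS mice, both lower. None of the scaffold genes passed between types.

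Promoter windows of the members are shown because ATF4 acts on many cytosolic synthetase genes through a short element. In RefSeq windows of GRCm38.p6 reaching from 250 bases before to 50 after a start site, the letters TGATGNAA, read on either strand (TTNCATCA on the other), occurred for 5 of 13 cytosolic members with a window (38.5%) and for 0 of 14 mitochondrial members. Of 27025 genes with a window, 1219 (4.51%) held them. Members without a window were not analysed here. The 30 bases around the match follow for 4 of these genes, 5′ to 3′ on the strand of the gene, with the matched letters in capitals.
Gars: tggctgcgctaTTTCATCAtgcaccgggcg
Iars: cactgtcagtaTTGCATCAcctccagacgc
Tars: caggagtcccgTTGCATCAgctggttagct
Yars: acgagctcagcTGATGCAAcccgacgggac

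These matches lie at chr6:55037960-55037989 for Gars, chr13:49682126-49682155 for Iars, chr15:11399655-11399684 for Tars and chr4:129189895-129189924 for Yars. A match is a description of letters and not a binding site. Stress values follow for Gars, Iars, Tars and Yars in that order, as log2 fold changes with SE. In PV neurons they were -0.19 ± 0.20, 0.21 ± 0.39, -0.18 ± 0.67 and 1.24 ± 0.46. In PYR neurons they were 0.06 ± 0.22, -0.33 ± 0.29, 0.52 ± 0.44 and -0.66 ± 0.30. In SST neurons all 4 were above 0, at 0.09 ± 0.22, 0.84 ± 0.40, 1.99 ± 0.78 and 0.35 ± 0.36. In VIP neurons they were 0.31 ± 0.34, -0.27 ± 0.44, 1.66 ± 0.90 and 0.44 ± 0.46. None passed the limma threshold, and whether the 4 genes change together was not tested.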

How the data were processed

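Each deposited column holds a signal: normalized counts, which the authors made by dividing reads per gene by a size factor of the library. Per the submitters' processing notes HISAT2, SAMtools 1.3, DESeq2 and GRCm38 were used; for the counter, the annotation and the strand setting, none of the sources used here gives a name. Dividing each value by that of a single read returned whole reads (within 0.001) for 100% of values, and edgeR 4.0.16 and DESeq2 1.42.0 were run on them as alternatives. Coordinates and exon lengths come from the reference annotation, to which 38636 identifiers matched. The test was limma 3.58.1 in R 4.3.3 on log2(normalized count + 4), filtered to a mean normalized count of 10 or more; p-values were adjusted after Benjamini and Hochberg over every gene tested, and 0.05 was the threshold. Libraries with the same number come from the same mouse, per the labels; the median correlation of their deviations was 0.00773 over 117 pairs, against -0.000989 over 1053 pairs of other mice. Comparisons of types and the interaction kept the mouse as a block. Correlations and shares were tested by permutation (SciPy 1.17.1, Python 3.11.15, 100000 resamples). On simulated data with 200 changed genes, 2-fold and 4-fold changes were recovered for 19% and 34% in PYR (16092 genes), 3% and 26% in PV (16847), 8% and 26% in SST (17108), 0% and 23% in VIP (19451) and 5% and 22% between types of control mice (17498). Shared stretches were searched with BLAST 2.17.0. Alternatives changed the pseudocount, filter, scaling, tool, block, covariates and libraries. The members and lists were chosen with earlier results of these data known. A promoter match and the values of 1 member are not reported here by name. Members named are Lars2, those that passed between types, those with the smallest p of a stress test, and the highest and lowest of each class; others, such as Pars2, were singled out after their values were seen.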

Additional observations from a re-analysis of the deposited data

Results flagged for a closer look

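In 14 of 64 groups of libraries examined for 8 members, a single library lay far from the others by Dixon's criterion; for normally distributed values chance gives about 1 in 20. These counts are skewed and several groups hold zeros, so that rate is not met here, and all 14 were the highest of their group. For Lars2, control replicate 3 of VIP neurons was at 5030 normalized counts, with the next at 2586. For Gars, control replicate 4 of PYR neurons was at 1391, with the next at 961. Sars was at 2443 in control replicate 3 of SST neurons, at 3133 in control replicate 4 of VIP neurons and at 1766 in the VIP library of UCMS mouse U609. Farsa was at 790.3 in control replicate 6 of VIP neurons. Tars was at 369 in control replicate 2 of PYR neurons.

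The low mitochondrial members made up the rest. Sars2 was at 104 in control replicate 8 of PV neurons with the next at 8.68, at 78.3 in control replicate 1 of SST neurons, at 334 in the SST library of UCMS mouse U608 and at 419 in control replicate 6 of VIP neurons. Wars2 was at 283 in control replicate 7 of PYR neurons, at 278 in the PV library of UCMS mouse U608 and at 633 in the VIP library of UCMS mouse U601. Causes were not tested.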

How the results depend on the processing

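Lars2 in PYR neurons kept its direction under the 14 other settings and under the 20 fits that left out 1 library (log2 fold changes of -0.68 to -0.56). Each of those 20 fits called 1 member, among 2 to 14 genes called over all. They reuse the libraries in which the change was already known, so nothing is read from those calls. Among the 14 other settings, leaving out the 7 shallowest libraries removed none from PYR, so it repeated the main fit there. As a description, 0 members in place of 1 had an adjusted p under 0.05 at nearly the same fold with no filter (-0.62), with a mean of at least 50 (-0.62), with edgeR (-0.61) and in 1 fit of all 8 groups with the mouse as a replicate block (-0.62). It was 0 also, at a smaller fold, with the protein-coding share (-0.20) or log2 Gm15564 (-0.19) as a covariate. The latter was added after the data were seen and picked for its likeness to Lars2. The cause was not tested. Over all genes the PYR count was 13 with limma, 0 with edgeR and 32 with DESeq2. In PV, leaving out each library in turn gave Lars2 log2 fold changes from -0.15 to 0.0017, the last, of opposite sign, without the library of mouse U607. In PV, SST and VIP 0 members passed in every fit that left out a library.

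Between types in control mice the 4 members called fell to 2 with a 2-fold minimum (Gars and Iars2), with no filter and with edgeR (Gars and Lars2 in both), and to 3, without Iars2, with DESeq2. In UCMS mice the 3 fell to 0 with a 2-fold minimum and to 1, Gars, with no filter, and rose to 4, with Aars, under edgeR, DESeq2 and a mean of at least 50. Without the replicate block 4 and 2 members passed. In PYR, 0 members in place of 1 passed in the fit with a mouse block, which also joined all 8 groups. In PV, SST and VIP and for the interaction, 0 members passed with or without the block. For the average, 0 passed both with 1 mean per mouse and with the mouse as a block. The mitochondrial sum fell from 31.1% to 19.4% of the cytosolic sum without Lars2.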
